A study of Danio rerio with 13 samples.

Results

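The interior of zebrafish chromosome 12 is described here by its 6mA summits, the points of highest enrichment in immunoprecipitation (IP) libraries made with antibodies against N6-methyldeoxyadenosine (6mA). It comprises all summits of the 8 IP libraries on this chromosome that lie more than 2 Mb from either of its ends. The end of a chromosome was taken as the last summit position of any list, 49220697 on chromosome 12, so that the interior runs over 45.2 Mb. It holds 4773 summits of the 159142 in the 8 lists. The interiors of the other 24 numbered chromosomes hold 103232. The chromosome was picked because its summit density from 11 to 13 h post fertilization (hpf) was already known to be high. That density is therefore given as a description, without a test, and the question is where along the chromosome it lies.

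The modified base 6mA is adenine that carries a methyl group on its N6 position. It is best known from bacteria, where it marks the cell's own DNA in restriction-modification systems and takes part in mismatch repair and replication control. In 6mA-IP-seq, an antibody that binds 6mA enriches fragments of genomic DNA, and these are sequenced beside fragments that were not enriched (the input). A stretch where the IP reads exceed the input reads is called a peak, and the position of highest enrichment within it is the summit. One peak can hold several summits. The 64-cell (64C) zebrafish embryo is a cleavage-stage embryo that relies mainly on maternal RNA and protein, whereas embryos at 11, 12 and 13 hpf are forming somites.

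All embryos came from the Tubingen line, and the labels name no treatment. The SYSY antibody was used for 1 library of 64C embryos and for 2 labelled replicates of each of the stages 11, 12 and 13 hpf. The Abcam antibody was used for a second library of 64C embryos, which had its own input. The samples hold 1 input for each later stage, so that its 2 replicates have no separate inputs here. The lists hold 2439 to 7582 summits from 11 to 13 hpf, 79291 at 64C with SYSY and 53511 at 64C with Abcam. Read numbers were not analysed here and the depth of the libraries is unknown, so levels are compared only as shares of, or ratios within, a list. The 64C lists and the later lists carry different replicate marks in their peak names. The labels do not say what these marks stand for, and whatever they stand for cannot be told apart from stage.

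From 11 to 13 hpf the interior of chromosome 12 had more summits per Mb than the other interiors in each of the 6 libraries. Replicates 1 and 2 held 178 and 118 summits there in the 11-hpf embryos, 90 and 115 in the 12-hpf embryos, and 91 and 62 in the 13-hpf embryos, 654 in all. The density on chromosome 12 ran from 1.37 summits per Mb in 13 hpf replicate 2 to 3.94 per Mb in 11 hpf replicate 1, against 0.941 and 3.06 per Mb in the other 24 interiors of the same libraries. Divided by the density of the other 24 interiors, it was 1.29 and 1.49 for 11 hpf, 1.33 and 1.38 for 12 hpf, and 1.37 and 1.46 for 13 hpf. This ratio, the relative density, averaged 1.39 ± 0.0767 (SD, n = 6 libraries). Chromosome 12 ranked 1 to 3 among the 25 interiors in single libraries and second by the mean, behind chromosome 20 with 1.41 ± 0.152. Chromosomes 24 (1.36 ± 0.187) and 15 (1.31 ± 0.0877) followed, and these neighbours in the order lay within 1 SD of each other. At the low end, chromosome 14 had 0.694 ± 0.0926.

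The stage means lay closer together than the 11-hpf replicates did. For 11 hpf the relative density averaged 1.39 ± 0.146, for 12 hpf 1.36 ± 0.0336, and for 13 hpf 1.41 ± 0.0598 (SD over the 2 replicates of a stage). The highest and the lowest stage mean were 0.0571 apart (exact permutation test over the 15 ways to pair the 6 libraries, p = 0.867, adjusted p = 0.867 over 3 such tests). The smallest p this design allows is 0.0667, so that it could not have reached 0.05.

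At 64C the ratio was 1.26 with the SYSY antibody (2762 summits, 95% Wilson interval 1.21 to 1.31, rank 3 of 25). With the Abcam antibody it was 1.10 (1357 summits, 1.04 to 1.16, rank 5 of 25). Both turned below 1 when only the 2439 highest-scoring summits of each list were kept, to 0.564 with SYSY and 0.936 with Abcam. These intervals, and those given below for shares, cover counting error only and treat summits as independent, which clustered summits are not. The single 64C libraries allow no test across replicates.

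**Figure D1:**
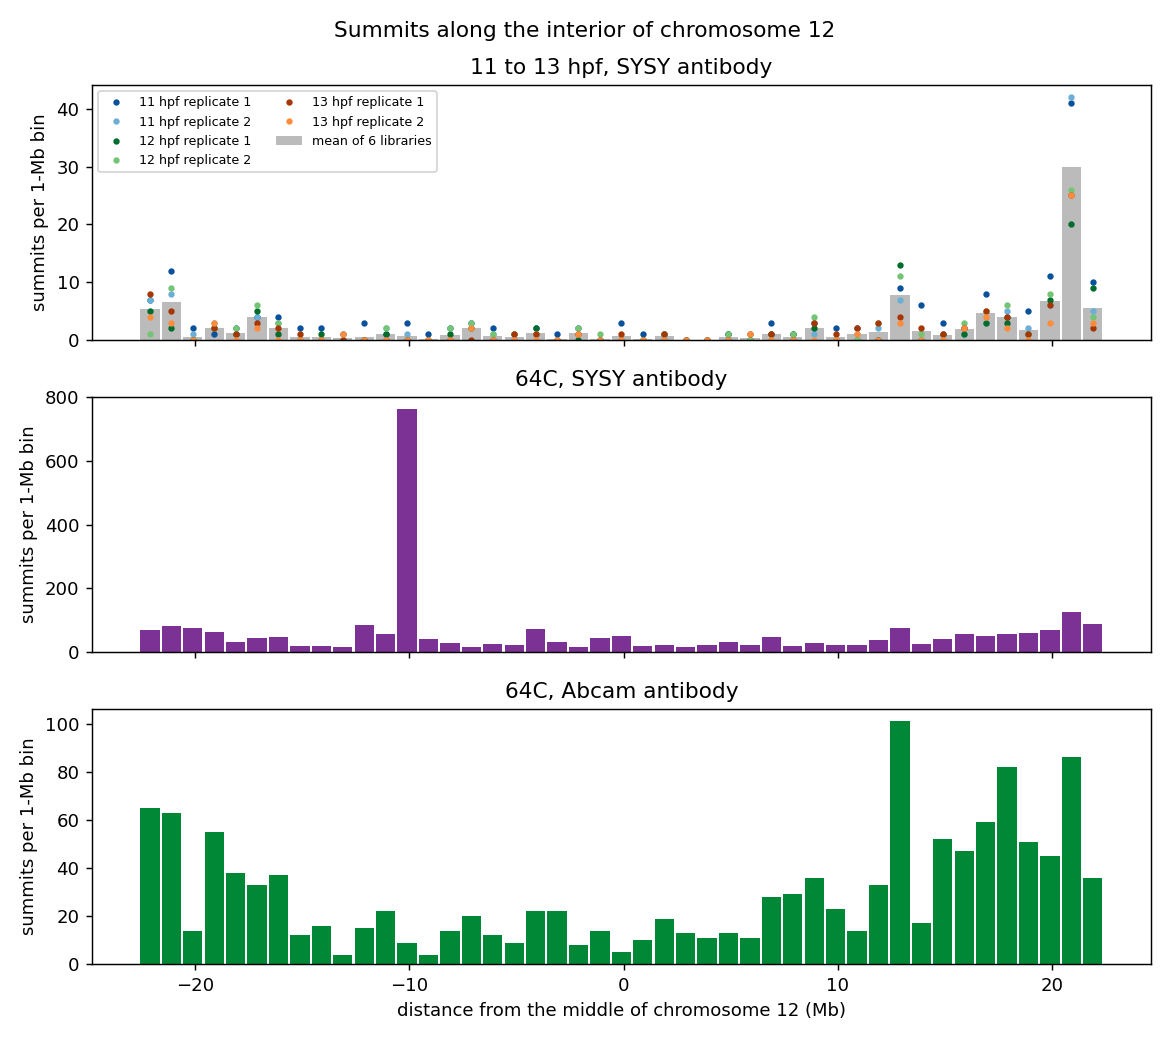
Summits per 1-Mb bin (y axis, a separate scale in each panel) along the interior of chromosome 12, against the distance from the middle of the chromosome in Mb (x axis). In the top panel, bars are means of the 6 libraries from 11 to 13 hpf and points are single libraries, and 1 bin, 20.9 Mb past the middle, stands out with 20 to 42 summits per library. The lower panels show the 64C SYSY library, with 763 summits in a bin 10.1 Mb before the middle, and the 64C Abcam library, with 4 to 101 summits per bin.

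The high density did not extend along the chromosome. The interior was divided into 45 bins of 1 Mb from its inner edge, and each bin was compared with the mean of all 1228 interior bins of the genome in the same library. The median bin of chromosome 12 had 0.493 of that mean from 11 to 13 hpf, against 0.528 for the bins of the other 24 chromosomes, and it ranked 17 of 25. Below the mean were 31 of the 45 bins (68.9%), against 70.9% of the other bins. No later summit lay in 2 bins of chromosome 12 (4.44%), against 6% of the bins elsewhere. The bin from 45 to 46 Mb had 18.4 times the genome-wide mean, the highest value of all 1228 bins and 3.94 times that of the next bin of chromosome 12. There were 41 and 42 summits in it in the 11-hpf libraries, 20 and 26 in those of 12 hpf, and 25 in each of 13 hpf. In each later library this was the fullest bin of the interior of chromosome 12. Without this bin, a choice made after seeing the data, the relative density of the rest of chromosome 12 was 1.01 ± 0.0705 (SD, n = 6) and lay above 1 in 4 of the 6 libraries. The other chromosomes kept their fullest bins in this comparison, so that a fall is built into it.

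Dense bins were defined as those with a summit in each of the 6 later libraries and at least 2 times the mean bin density on average over them. Of the 45 bins of chromosome 12, 9 (20%) were dense, against 13% of all interior bins and 12.8% of those on the other 24 chromosomes. Chromosomes 7 and 20 had 10 each, of 70 and 51 bins, and chromosome 5 had 9 of 67. The dense bins of chromosome 12 lie at both sides of its interior. On the near side they cover 2 to 4 Mb (3.38 and 3.62 times the mean) and 7 to 8 Mb (2.44 times). On the far side they cover 37 to 38 Mb (4.68 times), 41 to 43 Mb (2.84 and 2.43 times), 44 to 45 Mb (3.96 times), 45 to 46 Mb (18.4 times) and 46 to 47 Mb (3.21 times). None lies between 10 and 36 Mb, a stretch that held 6 to 39 summits per later library, or 9.68% to 21.9% of those on the interior. The longest stretch without a later summit ran from 26686072 to 29633451, 2.95 Mb, and held 59 summits of the 64C SYSY list and 36 of the Abcam list. The last 0.221 Mb of the interior, past 47 Mb, is shorter than a bin and could not be called dense. Later summits lay there too, among them groups of 7 at chr12:47073328-47073539 and 7 at chr12:47174635-47175359.

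The 9 dense bins held 447 of the 654 later summits of chromosome 12, a total that includes those past the last bin. By library the share was 59.6% and 73.7% for 11 hpf, 74.4% and 66.1% for 12 hpf, and 68.1% and 79.0% for 13 hpf. The mean was 70.2% ± 6.97, against 47.5% ± 5.09 for the dense bins of the other 24 interiors (SD, n = 6). Since the bins were chosen on the same libraries, these shares are a description. The stage means of the share on chromosome 12 differed by 6.94 percentage points (exact permutation test, p = 0.667, adjusted p = 0.867). The 64C lists took no part in choosing the bins. The same 9 bins held 23.8% of the 64C SYSY and 42.0% of the 64C Abcam summits of chromosome 12. In the dense bins of the other 24 interiors these shares were 21.1% and 27.8%. Dense bins made up 20% of the bins on chromosome 12 and 12.8% elsewhere, which bears on all these shares.

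When the dense bins of all 25 chromosomes were left out, the relative density of chromosome 12 from 11 to 13 hpf was 0.849 ± 0.104 (SD, n = 6), and it ranked 24 of 25. A low remainder follows in part from the choice of the bins, since they were picked for their density in these libraries and chromosome 12 lost 20% of its bins, against 12.8% on the other chromosomes. In the 64C Abcam list the same omission gave 0.960, and in the 64C SYSY list 1.33.

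Most of the 179 later summits in the bin from 45 to 46 Mb lay in 1 place. When the summits of the 6 later libraries were chained where neighbours were at most 1000 bp apart, 145 of them formed a single cluster of 6744 bp at chr12:45880967-45887710 (danRer10), 3.33 Mb before the last summit of the chromosome. It covers 0.0149% of the interior of chromosome 12. All 6 libraries contributed, the 11-hpf replicates with 31 and 32 summits, those of 12 hpf with 17 and 21, and those of 13 hpf with 21 and 23. These were 17.4% and 27.1% of the summits of the interior of chromosome 12 for 11 hpf, 18.9% and 18.3% for 12 hpf, and 23.1% and 37.1% for 13 hpf, 23.6% ± 7.53 on average (SD, n = 6). Among the 5242 clusters of later summits in the 25 interiors it was the largest. In that number, a summit with no other within 1000 bp counts as a cluster of 1. The cluster of 145 summits was also the largest with chromosome ends and unplaced scaffolds included. The next, with 81 summits, lies at chr10:17301546-17304101, and the next on chromosome 12 has 19. Chaining within 500 or 2000 bp gave the same borders and the same 145 summits.

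**Figure D2:**
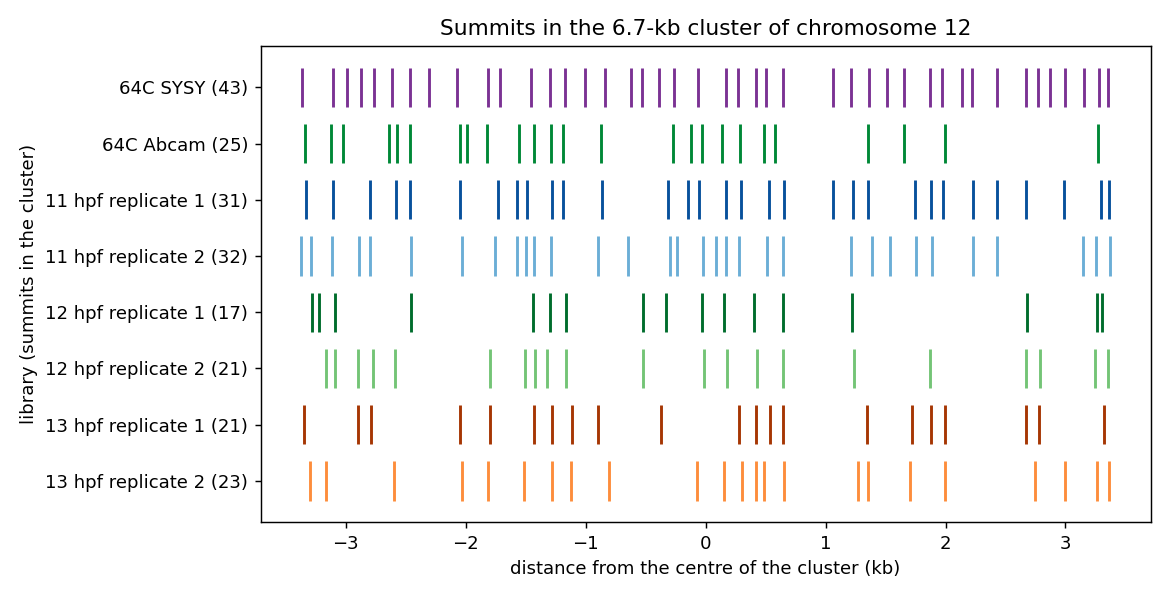
Positions of the summits in the cluster of 6744 bp on chromosome 12, as distance from its centre in kb (x axis), with 1 row per library (y axis) and 1 tick per summit. The number of summits is given beside each library, from 17 in 12 hpf replicate 1 to 43 at 64C with SYSY, and in all 8 libraries the ticks run over nearly the whole length. Only summits between the borders, which the later summits set, are drawn.

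Few later summits surrounded the cluster. None of them lay within 10 kb on either side of it, and within 100 kb there were 3 before it and 0 after it, over all 6 libraries. The 64C SYSY and Abcam lists each had 16 summits in the 100 kb before it, and 2 and 1 in the 100 kb after it. Inside, neighbouring summits of a later library were 179 to 247 bp apart in the median. The 145 summits belonged to 14 to 22 peaks per library, 109 when summed over the 6 libraries, so that the cluster was not 1 broad peak in any of them. In each of the 8 libraries, the outermost summits counted on both sides lay within 205 bp of the borders. The borders are the outermost later summits themselves, and 64C summits were counted only between them. A shared extent is therefore partly built in, and 1 further 64C SYSY summit lay within 10 kb after the cluster.

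Many of its summits lay close to those of other libraries. Of those in a given later library, 57.3% ± 6.04 had a summit of another later library within 50 bp and 91.8% ± 2.25 within 250 bp, on average over the other 5 (SD, n = 6). The wider distance is about the spacing within the cluster and separates no neighbours. For the narrower one, 23.9% to 44.7% of the bases of the cluster lie within 50 bp of a summit of a given later library. Chained within 50 bp, the summits fell into 42 sites. All 6 libraries had a summit at 4 of these sites, 5 libraries at 6, 4 libraries at 11, and a single library at 9.

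The same 6744 bp also held summits at 64C. The cluster took 23.6% of the summits on the interior of chromosome 12 in the later libraries, against 1.56% of those of the 64C SYSY list (43 summits, 95% Wilson interval 1.16 to 2.09%) and 1.84% of those of the 64C Abcam list (25 summits, 1.25 to 2.71%). The place was picked as the largest cluster of the later summits, so that a higher share in the later libraries is partly built in. The 64C lists are many times longer, and how the shares relate to depth was not tested. Of the 42 sites, 37 lay within 50 bp of a 64C SYSY summit and 24 within 50 bp of an Abcam summit. The summits are so close together that 61.9% of the bases of the cluster lie within 50 bp of a SYSY summit and 35.9% within 50 bp of an Abcam summit. Many sites would therefore be near one whatever their position. Sites were matched over their full width, which raises their share above that of single bases. The 2 antibodies differed in how the summits were grouped and ranked. The 43 SYSY summits formed 5 peaks and the 25 Abcam summits 17. Scores (the −log10 of the q-value from the peak caller) were ranked within the interior summits of a list, as percentiles that rise with the score. The later summits of the cluster averaged a percentile of 54.0 ± 5.15 (SD, n = 6). At 64C, the SYSY summits averaged 92.2 and all lay above the median of their list. The Abcam summits averaged 24.8, and 12.0% lay above the median. With 1 library per antibody, antibody and library cannot be told apart.

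This cluster made up most of the excess of chromosome 12 over the other interiors. Had chromosome 12 had the density of the other 24 interiors, the 6 later libraries together would have had 177 summits fewer on it, 19.4 to 39.7 per library, and the 145 summits of the cluster amount to 81.9% of that number. Without them, the relative density was 1.06 and 1.09 for 11 hpf, 1.08 and 1.13 for 12 hpf, and 1.06 and 0.916 for 13 hpf, with a mean of 1.06 ± 0.0729 and rank 9 of 25. That comparison removes a cluster from chromosome 12 alone. When the largest cluster of every chromosome was removed (16 to 145 summits), chromosome 12 had 1.14 ± 0.0707 and ranked 7 of 25, while chromosome 20 had 1.48 and kept the highest value. At 64C the ratio without the cluster was 1.24 with SYSY and 1.08 with Abcam. The cluster held only 43 of 2762 SYSY and 25 of 1357 Abcam summits there, so that these ratios could fall little.

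**Figure D3:**
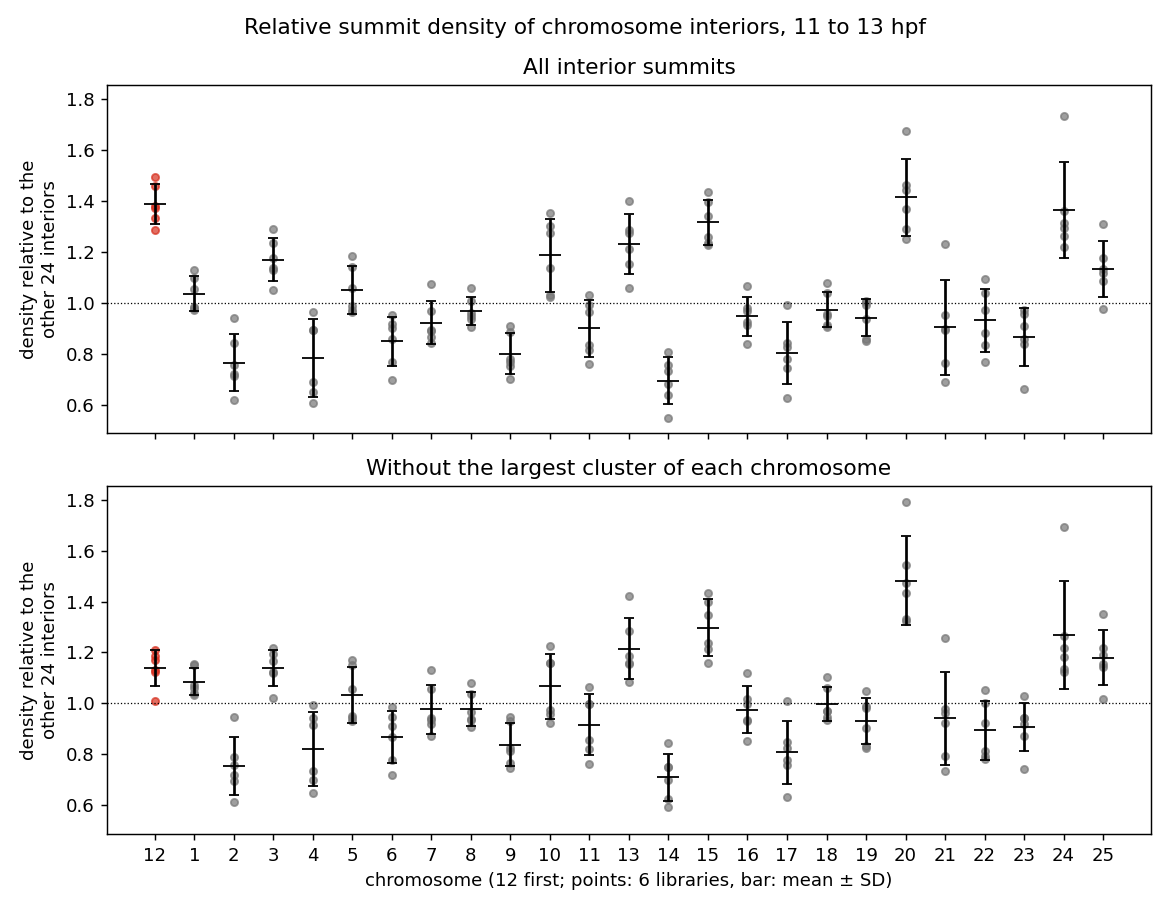
Summit density of each chromosome interior from 11 to 13 hpf relative to the other 24 interiors (y axis), with chromosome 12 leftmost and in red. Points are the 6 libraries and bars are mean ± SD. With all summits (top) chromosome 12 lies at 1.39, beside chromosomes 20 and 24, and without the largest cluster of each chromosome (bottom) it lies at 1.14.

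By distance from the chromosome ends, the excess lay mainly in the outermost of the 4 zones compared. Between 2 and 5 Mb from the nearer end, chromosome 12 had 9.64 ± 3.22 later summits per Mb, against 4.62 ± 1.78 per Mb on the other 24 chromosomes (SD, n = 6), a ratio of 2.14 ± 0.328 that ran from 1.79 to 2.54. Without the cluster the ratio in this zone was 1.20 ± 0.137, still above 1 in each library. From 5 to 10 Mb it was 0.946 ± 0.113 and from 10 to 15 Mb 1.21 ± 0.247, with libraries on both sides of 1. More than 15 Mb from the end, chromosome 12 had 0.676 ± 0.387 summits per Mb, against 0.974 ± 0.444 on the other chromosomes. There the ratio was 0.665 ± 0.151 and below 1 in each library. With the ends set at 5 Mb instead of 2 Mb, the relative density of the interior was 0.942. Summits lay mostly past the middle of the chromosome, 71.0% ± 2.63 of them in the later libraries, and 61.9% ± 3.35 without the cluster (SD, n = 6). The Abcam list at 64C had 62.4% there and the SYSY list 39.0%. The outer 2 Mb at each end, which are not part of the interior, were dense on chromosome 12 as well. They had 1.25 to 1.54 times the density of the other ends in the later libraries, 1.27 times in the 64C SYSY list and 1.43 times in the Abcam list.

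**Figure D4:**
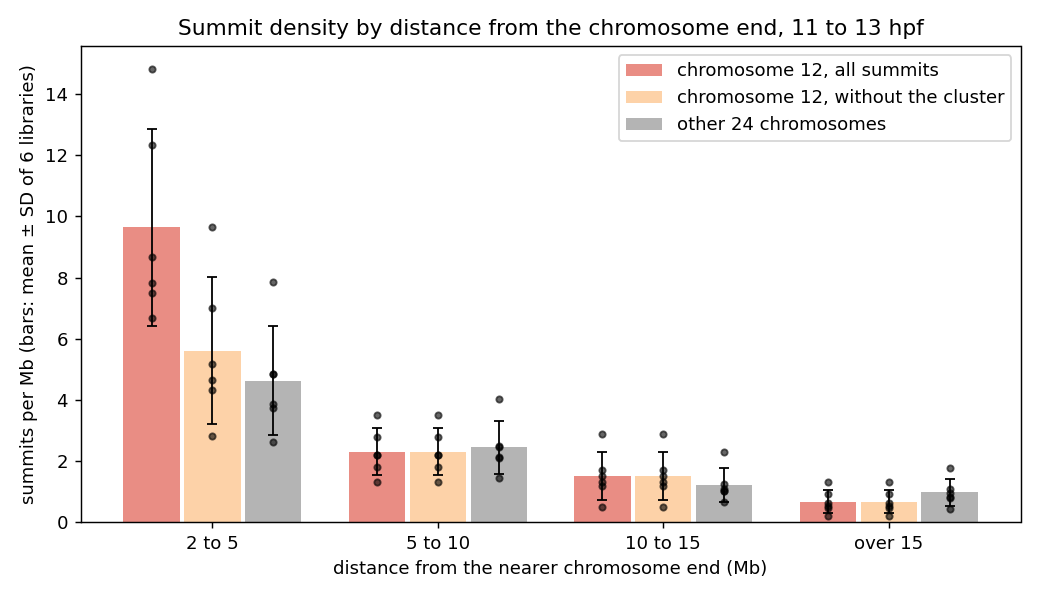
Summits per Mb (y axis) by distance from the nearer chromosome end in Mb (x axis), for chromosome 12, chromosome 12 without the 6744-bp cluster, and the other 24 chromosomes. Bars are means ± SD of the 6 libraries from 11 to 13 hpf and points are single libraries. Chromosome 12 stands above the others at 2 to 5 Mb (9.64 against 4.62 per Mb) and below them past 15 Mb (0.676 against 0.974 per Mb).

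Smaller clusters lay within dense bins as well, which is partly built in, since the bins were chosen for the number of these same summits. On chromosome 12, 9 of 214 clusters (4.21%) had 10 or more later summits, against 3.34% of all interior clusters and 3.3% of those on the other 24 chromosomes. Together they held 262 of the 654 later summits (40.1%), of which 117 were outside the largest cluster. A cluster at chr12:2726332-2728009 had 19 summits from 5 libraries, with 2 to 5 in each of these and none in 12 hpf replicate 2. Another at chr12:44536220-44539162 had 18 from all 6 libraries, 7 of them in 11 hpf replicate 1. At chr12:7906299-7907699 there were 17 and at chr12:46766331-46766935 16, from all 6 libraries each. At the other extreme, 130 of the 214 were single later summits with no other within 1000 bp. The shares of clusters given above count such single summits as clusters, on all chromosomes. By 100-kb bins, the 5 densest on the chromosome were 45.8 to 45.9 Mb with 148 later summits (the first of all interior 100-kb bins), 2.7 to 2.8 Mb with 23, 44.5 to 44.6 Mb with 22, 46.7 to 46.8 Mb with 19 and 7.9 to 8.0 Mb with 17. The last 4 ranked 46 to 89 among the interior bins.

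A summit was counted as recurrent where a second library had one at most 250 bp away. For a later library against the libraries of the other 2 later stages, the recurrent share was 48.6% ± 9.76 on chromosome 12 and 38.5% ± 7.23 on the other 24 interiors, and it was higher on chromosome 12 in 6 of 6 libraries, by 5.32 to 16.0 percentage points. Chromosome 12 ranked second of 25. Without the cluster it was 36.2% ± 8.22, rank 14, and higher than elsewhere in 1 of 6 libraries. The other chromosomes kept their clusters there. Removing the largest cluster of every chromosome gave 36.2% on chromosome 12 (rank 7 of 25) and 34.7% on the others, with chromosome 12 higher in 4 of 6 libraries. Between the replicates of a stage the share was 58.0% ± 12.8 on chromosome 12 and 45.3% ± 10.6 elsewhere, and 47.0% ± 13.1 on chromosome 12 without the cluster. When the other chromosomes also lost their largest cluster they had 41.7% ± 10.6. Chromosome 12 was then higher in 6 of 6 libraries, by 0.189 to 9.19 percentage points (rank 3 of 25). The 2 replicates of a stage were matched with each other, so that their shares count largely the same matches. The 6 values are thus not independent. All values are means ± SD over the 6 libraries. They come from the contrast for which the chromosome was chosen and are given without a test.

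Later summits of chromosome 12 mostly lay near a summit of the 64C lists. Of the later summits on chromosome 12, 88.3% ± 4.77 lay within 250 bp of a 64C SYSY summit, against 83.9% ± 3.45 elsewhere, and without the cluster 84.8% ± 5.94. Near a 64C Abcam summit lay 81.1% ± 5.08, against 71.5% ± 2.67 elsewhere. Without the cluster the share near an Abcam summit was 78.5% ± 4.74, and the difference was 2.64 to 10.6 percentage points in favour of chromosome 12 in 6 of 6 libraries (rank 4 of 25). Counted from the 64C side, 16.9% of the SYSY summits of chromosome 12 (468, 95% Wilson interval 15.6 to 18.4%) and 27.7% of the Abcam summits (376, 25.4 to 30.1%) had a later summit within 250 bp, against 15.3% and 25.1% on the other interiors. Without the cluster these shares were 15.6% (14.3 to 17.0%) with SYSY and 26.4% (24.1 to 28.8%) with Abcam on chromosome 12. Later summits define the cluster, so that this fall is largely built in, and the other interiors kept their clusters. The intervals cover counting error only and do not test a difference.

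**Figure D5:**
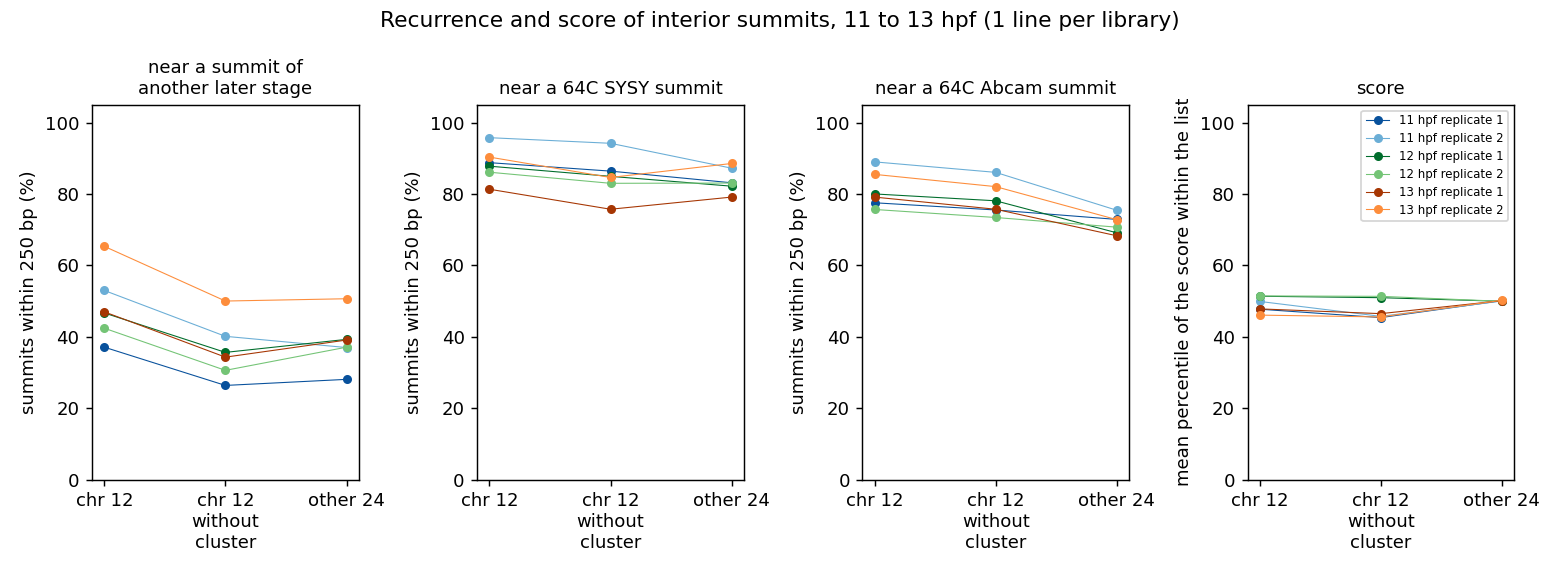
Recurrence and score of interior summits in the 6 libraries from 11 to 13 hpf, 1 line per library, on chromosome 12, on chromosome 12 without the 6744-bp cluster, and on the other 24 chromosomes. The first 3 panels give the percentage of summits at most 250 bp away from one of another later stage, of the 64C SYSY list and of the 64C Abcam list, and the last panel the mean percentile of the score within the list. Without the cluster the first share lies at 36.2% on average, against 38.5% on the other chromosomes, which kept their largest clusters here (34.7% without these). The score percentiles stay between 45.4 and 51.4 on chromosome 12, with or without the cluster.

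Scores on chromosome 12 lay near the average of their lists from 11 to 13 hpf. The mean percentile of the interior summits of chromosome 12 was 47.7 and 49.9 for 11 hpf, 51.3 and 51.4 for 12 hpf, and 47.8 and 46.1 for 13 hpf, and its rank among the 25 chromosomes ran from 9 to 21. The average was 49.0 ± 2.19, against 50.1 ± 0.116 on the other interiors (SD, n = 6). The other interiors hold most summits of each list, so that their mean lies near 50 by construction. By stage the percentile averaged 48.8 for 11 hpf, 51.4 for 12 hpf and 46.9 for 13 hpf, a spread of 4.46 (exact permutation test, p = 0.133, adjusted p = 0.4). On the chromosome itself, later summits outside the dense bins had the lowest percentiles, 41.4 ± 2.49. In the dense bins without the cluster the value was 51.2 ± 4.35, and in the cluster 54.0 ± 5.15. The bins were chosen on these same libraries. The 64C SYSY list had 49.5 in the dense bins without the cluster and 59.8 outside them, and the 64C Abcam list 48.9 in both. Peaks with more than 1 summit made up 7.40% ± 1.81 of the peaks on chromosome 12 and 5.14% ± 1.21 elsewhere. Without the cluster, chromosome 12 had 4.19% ± 0.867, but the other chromosomes kept their clusters in this comparison.

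At 64C the lists of the 2 antibodies placed the density of chromosome 12 differently. With 1 library per antibody, each with its own input, antibody and library cannot be told apart. The SYSY list had 763 of its 2762 summits in the bin from 14 to 15 Mb, and 633 of them at 14.3 to 14.4 Mb. There the Abcam list had 0 summits, which allows up to 3 by counting error, and the 6 later libraries had 1. Such places were sought as 100-kb bins with 20 or more SYSY summits whose number was 10 or more times that of Abcam summits plus 1. Chromosome 12 had 5 of them (1.11%, the same share as on all interiors). They lay at 12.1 to 12.2 Mb, 14.2 to 14.5 Mb and 24.7 to 24.8 Mb and held 836 SYSY summits, 30.3% of those on the interior of chromosome 12. The median score was 32.1 in them and 5.18 in the other SYSY summits of the chromosome. In these bins the later libraries had 4 summits, all of 11 hpf replicate 1. The Abcam list had 1, but a low Abcam number is part of the rule that chose these bins. Without such bins on all chromosomes, the relative density at 64C with SYSY was 1.15, and with 1 summit per peak it was 1.07. The mean score percentile of the SYSY list on chromosome 12 was 58.0 with these bins and 55.2 without them. The Abcam list averaged 48.5, rank 24 of 25, and its fullest bin on the interior was 37 to 38 Mb, with 101 summits. That bin held 76 SYSY summits at 64C and 3 to 13 in the later libraries.

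Regions shared by all libraries were few. Summits of all 8 libraries on chromosome 12 were chained within 250 bp, and 229 of the resulting regions had at least 1 later summit. A summit in all 6 later libraries was found in 9 of them (3.93%), against 3.18% of such regions over all interiors and 3.14% on the other 24. Of these 9, 2 were parts of the large cluster, and 7 remained without it. All 9 also had a summit in both 64C lists, so that the share in all 8 libraries was 3.93% too, against 2.57% over all interiors and 2.51% on the other 24. A single later library supported 141 regions (61.6%, against 62.1% on the other chromosomes). Neither 64C list had a summit in 22 of the 229 regions (9.61%), against 13.7% over all interiors, and both had one in 131 (57.2%), against 51%.

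Of the 9 regions, 8 lay past the middle of the chromosome, 8 lay in dense bins and none lay between 10 and 36 Mb. The region outside the dense bins, chr12:47073150-47073539, lies past the last bin and could not fall in a dense one. The dense bins held 68.3% of all later summits of the interior. A summit in each of the 6 later libraries is also part of the rule for a dense bin, so that this overlap is partly built in. The 9 regions are given in order of the mean percentile, over the 6 later libraries, of the best score in the region. First was chr12:46766317-46766935 with 98.9, which ranked 5 among the 179 regions of this kind in all interiors. Its best scores were 22.9 and 19.8 for 11 hpf, 12.4 and 18.0 for 12 hpf, and 18.5 and 16.6 for 13 hpf. Second was chr12:7907365-7907830 with 97.0, the only one before the middle, with best scores of 10.1 to 18.3. Next came 2 regions, chr12:45880967-45884995 with 93.0 and chr12:45885401-45887806 with 89.8, which are the parts of the large cluster that the 250-bp distance splits. Their best scores are taken over 13 to 22 and 4 to 12 summits per later library, against 1 to 5 in the other regions. A maximum over more summits tends to be higher, and all later summits of the cluster averaged a percentile of only 54.0. The fifth, chr12:37686733-37686983 with 88.1, lies in the fullest bin of the Abcam list. The other 4 were chr12:44537976-44539162 (73.7), chr12:41313447-41313677 (66.1), chr12:47073150-47073539 (64.0) and chr12:45559252-45559474 (52.5). At the last of these, the replicates of 11 hpf had best scores of 13.0 and 16.0, those of 12 hpf 5.47 and 2.18, and those of 13 hpf 2.04 and 3.88, so that both replicates of 11 hpf lay above the other 4 libraries. The same order held at the first region, with 22.9 and 19.8 against at most 18.5. At the last region, the 11-hpf best scores were also taken over 3 summits each, against 1 to 3 in the other libraries. Scores depend on the depth of a library, which is unknown, and no difference between stages was tested at either region. Genes and repeats in these regions were not analysed here, since no danRer10 annotation was used.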

How the data were processed

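Summits of 8 IP libraries were used, and the 5 inputs enter only through the authors' peak calling. Per the labels and the study's methods, reads were aligned by the authors to danRer10 (Bowtie 1.0), keeping 1 randomly chosen position where a read had several best matches. Peaks came from MACS2, run on each library with its input as control (false discovery rate 0.01). The deposited value of a summit is the −log10 of its q-value, at least 2 in all lists. With random placement, a summit in a repeat may belong to another copy of it. Reads were not analysed here and precision is limited by summit numbers.

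Summits more than 2 Mb from the ends of the 25 numbered chromosomes were counted per Mb and in bins of 1 Mb and 100 kb. The last 0.221 Mb of the interior of chromosome 12 enters densities but no bin. Clusters are later summits chained within 1000 bp, and a single summit counts as a cluster of 1. Libraries were compared within 250 bp, and positions count from 1. Stages were compared by an exact permutation test of the highest minus the lowest stage mean, with Benjamini-Hochberg adjustment over 3 tests. Named regions were all dense bins, the 5 densest 100-kb bins and up to 10 regions with a summit in all 6 later libraries, by mean score percentile. The clusters were added after seeing the data. The chromosome, the bins and the tests were chosen with earlier results of these data known. Alternatives covered the distance from the ends, the size and threshold of the bins, the matching distance, filters on the score, 1 summit per peak, the comparison chromosomes, leaving out each replicate, a replicate block, and leaving out the clusters. Counting of ratios and clusters was tested on simulated lists. Scripts ran in Python 3.11.15 with matplotlib 3.10.9, SciPy 1.17.1, pandas 2.3.3 and NumPy 2.4.6.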

Additional observations from a re-analysis of the deposited data

Results flagged for a closer look

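One value stood far from the others. Without the 6744-bp cluster, the relative density of the interior of chromosome 12 was 0.916 in 13 hpf replicate 2, against 1.06 to 1.13 in the other 5 libraries from 11 to 13 hpf, and it was the only one below 1. The gap to the nearest library exceeded Dixon's 95% critical value for 6 values, which chance exceeds in about 1 in 20 groups. This library has the fewest summits, 62 on the interior of chromosome 12, of which 23 lie in the cluster. Without it, the share of later summits in dense bins was 68.4%, against 70.2% with it.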

How the results depend on the processing

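The relative density of chromosome 12 from 11 to 13 hpf was 1.39 and kept within 1 SD under 1 summit per peak, the filters on the score, the other comparison chromosomes and ends at 1 or 3 Mb. It fell to 0.942 with ends at 5 Mb, to 0.849 without dense bins, to 1.06 without the cluster, to 1.14 without the largest cluster of every chromosome (1.14 also with chaining at 500 or 2000 bp) and to 1.01 without the 1-Mb bin of the cluster. These follow from what was left out. The 64C Abcam ratio of 1.10 was 1.19 with ends at 1 Mb, 1.03 with scores at or above the median and 0.936 with the 2439 highest-scoring summits of each list. The 64C SYSY ratio of 1.26 was 1.07 with 1 summit per peak, 1.52 with scores at or above the median, 0.564 with the 2439 highest-scoring summits, 1.31 against the median chromosome and 1.15 without the bins dense in this list alone. The cause of these shifts was not tested. The share of summits in dense bins (70.2%) was 57.1% with 0.5-Mb bins, 60.6% with 2-Mb bins, 58.1% at 3 times the mean and 61.2% without the cluster, and 2-Mb bins gave 4 dense bins in place of 9. Recurrence (48.6%) was 36.4% within 100 bp and 36.2% without the cluster. In place of 9 regions, 14 had all 6 later libraries at 100 bp and 7 had them without the cluster.

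Leaving out each library in turn gave relative densities of 1.37 to 1.41, shares in dense bins of 68.4 to 72.3%, 9 dense bins each time, recurrence of 46.7 to 51.2%, 9 to 12 regions in all later libraries kept and mean percentiles of 48.6 to 49.6. The stage spreads then ran from 0.0331 to 0.136, from 3.46 to 14.0 percentage points and from 3.59 to 5.33. With the replicate block, the spreads of 0.0571, 6.94 and 4.46 had p = 0.667, 0.833 and 0.333 (exact permutation within replicate numbers, smallest p 0.167). Same-numbered libraries did not all deviate together over the bins of chromosome 12. The correlation was 0.800 between 11 and 13 hpf, 0.0711 between 11 and 12 hpf and −0.0452 between 12 and 13 hpf. With 2 replicates per stage, both replicate numbers give the same values. The numbers were not taken as pairs, and whether 11 and 13 hpf share a replicate effect was not tested. No test of stage could pass 0.05 in this design, so these p-values say nothing of stability. The spread of the score percentile reached the smallest possible p, 0.0667, without 13 hpf replicate 1 (5.33). Leaving out a library leaves its stage with 1.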
